A study of Rattus norvegicus with 6 samples.

Results

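Collagens are the triple-helical proteins of the extracellular matrix. Their transcripts were followed through single nucleus RNA sequencing of rat brain 48 h after permanent occlusion of the middle cerebral artery (MCAO). Every gene whose symbol is Col, a number, a and a number was taken, which gave 42 genes of the 30560 in the files, from 27 collagen types, and all 42 had at least 1 unique molecular identifier (UMI, 1 captured RNA molecule). The animals were wild-type male Wistar rats, 12 weeks old, all killed 48 h after the operation. In 7 rats a filament was advanced to the origin of the right middle cerebral artery and left there, and in the 4 Sham rats the same operation was done without the filament. Nuclei of all rats of a kind were pooled before capture and the hemispheres were kept apart, which gave 6 libraries: Sham_L and Sham_R (left and right hemispheres of the same 4 rats), mMCAO_contra and mMCAO_ipsi (3 rats with moderate lesions on MRI), and sMCAO_contra and sMCAO_ipsi (4 rats with severe lesions). Ipsi is the infarcted right hemisphere, contra the left hemisphere of the same rats, and the tissue was coronal slices through the lesion, so infarct core, its border and spared tissue are mixed in a library. With 2 libraries per group, the p-values below measure the spread between those libraries. Sham_L and Sham_R share their rats, so in Sham this is a spread between hemispheres of the same pool. In each MCAO group the 2 libraries are different pools that also differ in lesion severity. Below, 2 values for a group are always given as left then right for Sham and as moderate then severe for MCAO.

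A collagen molecule is built of alpha chains, each from its own gene, that wind around each other. Types I, III and V form fibrils made chiefly by fibroblasts, type IV forms the sheet of basement membranes that endothelial cells and pericytes lay down around vessels, and other types decorate fibrils, join membranes to matrix or sit in the plasma membrane. Healthy brain tissue holds little fibrillar collagen outside the meninges and the larger vessels, and scar tissue after injury can hold more.

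The results below turn on 4 genes whose upstream DNA was read, so that a reader can see the stretch beside the values: Col4a1 and Col4a2, whose starts lie head to head and whose levels are described side by side in vessels and oligodendrocyte precursor cells (OPCs), Col5a3 and Col11a2. The sequences are RefSeq's on the rat build GRCr8 (the UMIs were counted on mRatBN7.2, whose coordinates were not used here). The bases between the annotated starts of Col4a1 and Col4a2 lie at chr16:84885521-84885596, plus strand, 76 bases. The other stretches are the 250 bases before the start, written in the direction of the gene: Col5a3 at chr8:27625949-27626198, minus strand, and Col11a2 at chr20:4817649-4817898, minus strand. Capitals mark each GGGCGG (the GC box, a letter match to the Sp1 family motif) and each CCAAT on either strand, so that CCGCCC is a GGGCGG on the other strand.
between Col4a1 and Col4a2: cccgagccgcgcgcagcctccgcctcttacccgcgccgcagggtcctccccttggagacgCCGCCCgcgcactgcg
Col5a3: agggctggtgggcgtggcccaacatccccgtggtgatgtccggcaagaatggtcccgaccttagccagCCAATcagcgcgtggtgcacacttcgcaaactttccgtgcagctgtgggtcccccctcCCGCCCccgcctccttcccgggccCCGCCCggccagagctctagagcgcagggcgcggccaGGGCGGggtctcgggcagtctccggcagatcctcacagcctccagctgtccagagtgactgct
Col11a2: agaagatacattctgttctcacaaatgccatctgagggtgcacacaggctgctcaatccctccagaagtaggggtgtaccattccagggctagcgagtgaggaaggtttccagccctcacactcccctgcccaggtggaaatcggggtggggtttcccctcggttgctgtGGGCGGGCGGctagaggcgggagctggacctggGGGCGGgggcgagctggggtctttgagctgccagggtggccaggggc
The stretch shared by Col4a1 and Col4a2 holds 1 GGGCGG, on the minus strand. Col5a3 holds a CCAAT 182 bases and GGGCGG at 124, 100 and 63 bases before the start, and Col11a2 holds GGGCGG at 80, 76 and 47 bases, the first pair overlapping. Over all 33469 start windows of the annotation (250 bases before to 50 after the start, both strands), GGGCGG was found in 30.5% and CCAAT in 34.0%. Of the 33 collagens with such a window, 18 (54.5%) held GGGCGG and 11 (33.3%) CCAAT, 4 (12.1%, against 12.9% of all windows) TATAAA and 1 (3.03%, against 4.05%) TGACTCA, the letters AP-1 binds. These are letter matches and were not tested as sites.

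Of 73649 nuclei within the limits of the study, 47203 carried the markers of exactly 1 of 11 cell classes, 3586 those of more than 1 and 22860 those of none. Classes hold only the first, and 186 nuclei with both endothelial and mural markers are described apart. No collagen is a marker, so the classes do not depend on the genes described. Each class expressed its own markers (in fibroblasts Bnc2 stood at 2946 and Bicc1 at 1412 CPM, that is UMIs per 1000000 UMIs of the class, and in endothelium Mecom at 3222), none of the markers in the files was at 0 in its own class, and 3 of 13 endothelial markers and 1 marker in each of 7 other lists, the pan-neuronal one among them, were not matched in the files. Marker levels in their own class follow from the gate and are no check of it. Markers of other classes were present too: Slc4a4 of the astrocyte list stood at 2040 CPM in fibroblasts, and Nxph1 and Adarb2 of the GABAergic list at 3365 and 3007 CPM in OPCs, while Gad1 and Gad2 were at 85.2 and 91.5 CPM there. Libraries held 33012945 (sMCAO_ipsi) to 52513380 UMIs, with medians of 2059 to 3360 UMIs per nucleus. In sMCAO_ipsi the glutamatergic nuclei that passed stood apart, with 1087 nuclei and a median of 8755 UMIs against 2616 to 3866 nuclei and 3215 to 5041 UMIs in the other libraries. Of 70713 distinct barcodes, 3022 occurred in more than 1 library, 118 to 281 for each of 15 pairs of libraries.

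Which cells the collagen transcripts came from is described first, over all 6 libraries together. By CPM, 14 of the 42 collagens were highest in fibroblasts, 7 in mural cells (pericytes and smooth muscle), 5 in other GABAergic neurons (interneurons, medium spiny neurons apart), 4 each in astrocytes, glutamatergic neurons and oligodendrocytes, 2 in OPCs, and 1 each in endothelial and ependymal cells. The severe infarct gave 75.5% of all mural UMIs, and Sham held 3 mural nuclei. Ranked by the mean of the libraries instead, 36 of the 42 kept their first class, and of the 7 led by mural cells Col4a1 and Col4a3 went to endothelium and Col5a2 to fibroblasts. The classes differ in size, with 439 fibroblasts, 63 mural and 395 endothelial nuclei against 18155 glutamatergic neurons, so a collagen could be highest per UMI in a vascular class and still have most of its molecules in neurons.

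Among the 11 fibrillar collagens, the 3 that make the bulk fibrils of connective tissue were fibroblast and mural transcripts. Col1a1 stood at 291 CPM in fibroblasts, Col1a2 at 479 in fibroblasts and 257 in mural cells, and Col3a1, the type III chain, at 568 in fibroblasts and 550 in mural cells. For Col3a1 the mural to fibroblast ratio was 0.967 (95% interval 0.643 to 1.40, exact Poisson, counting error only, as for all ratios below), higher in mural cells in 1 of the 5 libraries with both, so their order was not detectable at this depth. Fibroblasts gave 855 of the 1514 gated UMIs of Col1a1, Col1a2 and Col3a1, 56.5% (exact binomial 95% interval 53.9 to 59.0), OPCs 8.72%, astrocytes 7.13%, endothelium 3.76% and mural cells 3.50%. The fibroblast share was 15.4% and 24.2% in the Sham libraries, 59.2% and 58.5% in MCAO contra and 40.3% and 63.0% in MCAO ipsi. It was lowest in the Sham libraries, which also held fewest fibroblasts, 18 and 14 nuclei against 58 to 175 in the others.

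Type V chains, which regulate the width of type I fibrils, did not share a source. Col5a1 was highest in fibroblasts (160 CPM, 3.11 times the astrocyte level) and Col5a2 in mural cells and fibroblasts (568 and 454 CPM, interval of the ratio 0.835 to 1.82, higher in mural cells in 2 of 5 libraries). Col5a3 was highest in OPCs at 303 CPM, 3.26 times the oligodendrocyte level and higher there in 6 of 6 libraries. Glutamatergic neurons held 61.8% of its UMIs, most of them from MCAO ipsi. Their UMIs were 18 and 31 in Sham, 185 and 84 in contra and 1383 and 1903 in ipsi. OPCs held 72 and 43, 261 and 180, and 127 and 335 in the same order. Of the cartilage-type fibrillar chains, Col11a1 was an ependymal transcript, at 2318 CPM against 178 in OPCs (ratio 13, interval 11.6 to 14.6, higher in 6 of 6 libraries). Col11a2 was an astrocyte transcript, at 309 CPM against 40.6 in oligodendrocytes (ratio 7.63, 6 of 6 libraries), Col27a1 stood at 137 CPM in astrocytes and 71.8 in OPCs (ratio 1.91), and Col24a1 at 37.9 in other GABAergic and 18.7 in glutamatergic neurons (ratio 2.03).

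The type IV chains split between vessel cells and fibroblasts. Col4a1 stood at 1668 CPM in mural and 1577 in endothelial cells, a pooled ratio of 1.06 (0.842 to 1.31), but mural cells were higher in 0 of the 5 libraries with both, and the mean of the libraries was 650 CPM in mural and 785 in endothelial cells. Endothelium was 11.8 times above fibroblasts (9.47 to 15, higher in 6 of 6 libraries). Col4a2 was 1338 CPM in mural and 844 in endothelial cells, 1.59 times as high (1.22 to 2.03, higher in 4 of the 5 libraries with both). Endothelium nonetheless gave 14.9% of the gated Col4a1 UMIs (14 to 15.9), and glutamatergic neurons gave 46.1% of Col4a1 and 54.7% of Col4a2. Col4a3, best known from the glomerulus of the kidney, was 202 CPM in mural cells (11 UMIs) and 127 in endothelial cells over all libraries, with a mean of the libraries of 205 and 282, so the order of these classes turns with the weighting. Other GABAergic neurons, at 27.7 CPM and 10.8 times the glutamatergic level, held 61.4% of its UMIs. Col4a6 went with fibroblasts (409 CPM) and ependymal cells (309 CPM), and fibroblasts were 4.28 times above endothelium.

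The network and filament collagens were mostly fibroblast or mural too. Col8a1, a short chain collagen of vessel walls, was 537 CPM in fibroblasts and 137 in endothelium (ratio 3.93), Col8a2 65.8 CPM and Col7a1, the chain of anchoring fibrils, 138 CPM in fibroblasts. Col6a1 and Col6a2, of the beaded filaments around cells, were both 220 CPM in mural cells and Col6a3 155 in fibroblasts. Glutamatergic neurons, at 41.7 CPM and 13.8 times the level of other GABAergic neurons (6 of 6 libraries), held 90.8% of the Col6a1 UMIs. Col18a1, the precursor of endostatin, was 348 CPM in mural cells and 310 in fibroblasts, and Col15a1, its relative in the multiplexin group, was 170 in endothelium and 84.6 in fibroblasts.

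Fibril-associated and transmembrane collagens included those of the oligodendrocyte lineage and of neurons. Col9a3 was 131 CPM in oligodendrocytes, 7.41 times the astrocyte level (6 of 6 libraries), and 72.7% of its UMIs came from them, and Col9a2 was 16.3 CPM there. For Col16a1 oligodendrocytes (139 CPM) and OPCs (132 CPM) did not separate, with a ratio of 1.05 (0.935 to 1.18). Ranked by the mean of the libraries, Col16a1 was highest in astrocytes. There it was 95.8 and 82.2 CPM in Sham and 143 and 143 in MCAO contra. Oligodendrocytes held 59.7 and 61.2 CPM in Sham and 75.8 and 46.6 in contra, and 300 in sMCAO_ipsi. Col20a1 was 52.1 CPM in OPCs. Col12a1 (407 CPM) and Col14a1 (39.1 CPM), which bind the surface of fibrils, were highest in fibroblasts. Col25a1, the membrane collagen that is the precursor of the amyloid plaque component CLAC, was 388 CPM in other GABAergic, 333 in medium spiny and 150 in glutamatergic neurons, and neurons, the largest and deepest classes, gave 95% of its UMIs. Per UMI of the class it was also present in OPCs (208 CPM), in astrocytes (97.2 CPM) and in fibroblasts, at 125 to 639 CPM by library. Col19a1, made by interneurons and linked to synapse formation, was 260 CPM in other GABAergic and 129 in glutamatergic neurons, while of the remaining transmembrane collagens Col13a1 (105 CPM) and Col23a1 (119 CPM) were highest in fibroblasts, and Col23a1 was 4.78 times higher in glutamatergic than in other GABAergic neurons.

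The comparison of infarcted with Sham hemispheres asked in which classes collagens change with infarction. The 6 classes with at least 20 nuclei in every library were tested, each over all its genes, with edgeR's quasi-likelihood test and Benjamini-Hochberg adjustment. A collagen is called where the adjusted p is under 0.05 and the fold change at least 0.6 on the log2 scale. Of 127 pairs of a collagen and a class, 28 were called between MCAO ipsi and Sham, 16 higher and 12 lower, from 17 collagens, and 28 between MCAO ipsi and MCAO contra, 20 higher and 8 lower, from 19 collagens. Of all pairs of gene and class tested, 7.4% were called against Sham and 5.01% against contra. These comparisons share the ipsi libraries, and 19 pairs were called in both. Some of the higher pairs in both comparisons passed edgeR's filter on low counts only through MCAO ipsi, Col8a1 in OPCs among them. These pairs are named with their classes below. The numbers of calls depend on that filter and are not read as a result about collagens. Between MCAO contra and Sham edgeR and DESeq2 each called 0 of 127, with 22 under an unadjusted p of 0.05 by edgeR, and 0.132% of all pairs of gene and class were called. Single libraries weigh heavily here: leaving out Sham_L left 6 of the calls against Sham, leaving out Sham_R 11, and leaving out mMCAO_ipsi gave 51. Against MCAO contra, leaving out mMCAO_contra gave 11 calls, 10 of them among the 28, and leaving out mMCAO_ipsi gave 55. Against Sham, 5 calls held whichever library was left out: Col11a2 in astrocytes, Col16a1 in OPCs and Col9a1, Col19a1 and Col23a1 in medium spiny neurons. Against MCAO contra 7 did, for Col11a2 and Col25a1 in astrocytes, Col25a1, Col16a1, Col5a3 and Col8a1 in OPCs and Col9a1 in medium spiny neurons.

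**Figure D1:**
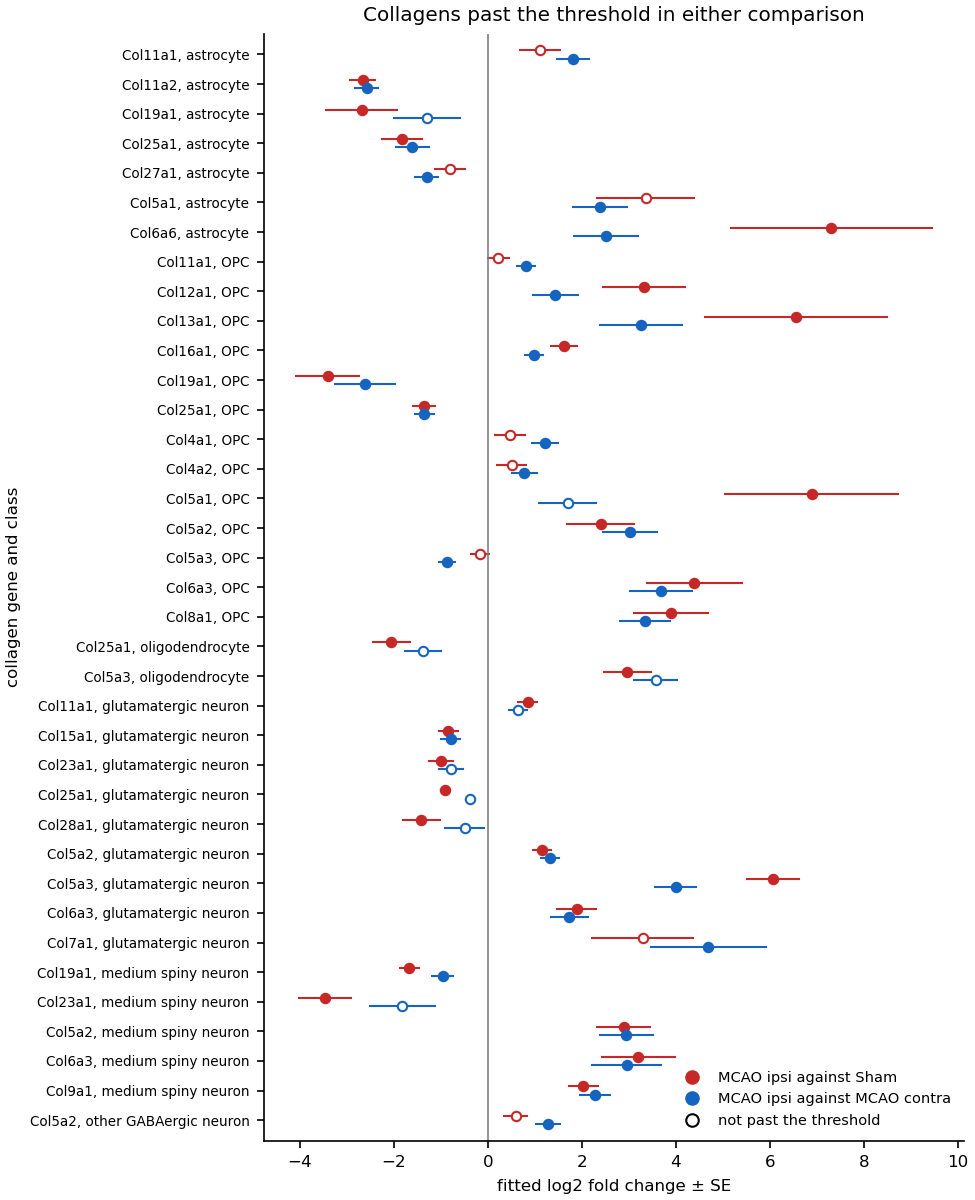
log2 fold changes (x axis, points ± SE from edgeR) of the 37 pairs of collagen and cell class called in either comparison of MCAO ipsi, against Sham in red and against MCAO contra in blue, with open points where the call was not made. The fitted values of Col5a1 and Col13a1 in OPCs and Col6a6 in astrocytes against Sham rest on 0 UMIs in Sham, so their size depends on the prior count and is no bound.

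In astrocytes of the infarcted hemisphere Col11a2 and Col25a1 were lower, and Col6a6 was higher, while Col11a1 and Col5a1 were higher than in MCAO contra. Of 12 collagens tested against Sham, 1 was higher and 3 lower, where 6.27% of all genes tested were called higher and 6.38% lower. Col11a2 stood at 805 and 808 CPM in Sham, 919 and 596 in MCAO contra and 148 and 120 in MCAO ipsi. Both infarcted libraries lay below every other library, and the log2 fold change was -2.66 ± 0.26 (SE, edgeR adjusted p = 0.000383) against Sham and -2.57 ± 0.25 (edgeR adjusted p = 0.000216) against MCAO contra. Nuclei with a Col11a2 UMI made up 45.3% of Sham, 48.9% of contra and 21.9% of ipsi astrocytes, against 1.28%, 2.02% and 1.85% of glutamatergic neurons. Median depth was 727, 960 and 1746 UMIs in those astrocytes and 3719, 4746.5 and 5501 in the neurons. Thinned to 1000 UMIs per nucleus, the astrocyte shares were 22.2% and 25% in Sham, 53.2% and 39.1% in contra and 15.3% and 13.6% in ipsi. Only 34 Sham astrocytes were deep enough, and a further random draw gave 17.6% of them together, so after thinning Sham cannot be separated from ipsi. The bases before the start of Col11a2 are those printed above.

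Col25a1 in astrocytes was 192 and 233 CPM in Sham, 134 and 236 in MCAO contra and 36.7 and 77.4 in MCAO ipsi (log2 fold change against Sham -1.83 ± 0.43, edgeR adjusted p = 0.0155, against contra -1.60 ± 0.35, adjusted p = 0.012). The infarcted libraries were again the lowest, but the call against Sham was lost without Sham_L (edgeR adjusted p = 0.0567) or Sham_R (0.0685). Summed pan-neuronal markers in astrocytes moved the same way, at 958 and 1110 CPM in Sham, 571 and 783 in contra and 427 and 186 in ipsi, and their part in Col25a1 and Col19a1 was not tested. Col19a1, at 47.9 and 54.8, 12.4 and 29.5, and 9.16 and 7.44 CPM in the same order, was called lower (-2.68 ± 0.76, edgeR adjusted p = 0.0381), a call made in none of the fits with a library left out. It rested on 5 and 4 UMIs in Sham, 4 and 6 in contra and 5 and 10 in ipsi. Col19a1 passed edgeR's filter on low counts in astrocytes only through Sham. Col6a6, a chain of beaded filaments, had 0 UMIs in Sham and 88 in MCAO ipsi (42.1 and 48.3 CPM), 2.75 times the level of 3 counts over the Sham group (edgeR adjusted p = 0.0477), and 12.4 and 0 CPM in contra.

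Against MCAO contra 3 of the 12 were higher and 3 lower in astrocytes, against 6.84% and 5.07% of all genes. Col11a1 rose (38.3 and 110 CPM in Sham, 37.3 and 49.2 in contra, 141 and 165 in ipsi, log2 fold change 1.82 ± 0.34, edgeR adjusted p = 0.00552). The Sham libraries differed from each other here, and Sham_R lay near the infarcted ones. Col5a1 rose (9.58 and 0, 15.5 and 4.92, 42.1 and 76.6 CPM, 2.39 ± 0.58, edgeR adjusted p = 0.0191), as did Col6a6 (2.51 ± 0.68, edgeR adjusted p = 0.0366, but 0.054 with the rat pool as a block). Col5a1 and Col6a6 passed edgeR's filter on low counts in astrocytes only through MCAO ipsi. Col27a1, a fibrillar collagen, fell (201 and 137, 289 and 192, 110 and 98.2 CPM, -1.30 ± 0.24, edgeR adjusted p = 0.00531, lost without mMCAO_contra at 0.103). Summed mural markers in astrocytes were 54.8 to 88.6 CPM outside the infarct and 137 and 251 in ipsi, and fibroblast markers 137 to 279 outside and 233 and 289 in ipsi, and their part was not tested.

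By edgeR OPCs had the most collagen calls of the glia, but this order depended on the tool and the gate. Against Sham, DESeq2 made 3 calls each in OPCs, astrocytes and oligodendrocytes. With at least 3 distinct markers per nucleus, edgeR made 1, 2 and 0. In OPCs 7 of 17 tested were higher and 2 lower than in Sham by edgeR, where 8.08% of all genes were called higher and 9.66% lower. The median log2 fold change was 0.51 over these collagens and 0.03 over all genes. Among the higher ones, Col5a1, Col5a2, Col6a3, Col8a1, Col12a1 and Col13a1 held 0 to 2 UMIs in each Sham library. These passed the filter on low counts only through MCAO ipsi. The number of higher calls and the median therefore depend on that filter, and their fold changes rest on those few Sham UMIs. Col16a1, a fibril-associated collagen that binds integrins, held in every fit: 60.7 and 39.1 CPM in Sham, 80.3 and 83.2 in MCAO contra and 153 and 199 in MCAO ipsi (1.62 ± 0.27, edgeR adjusted p = 0.000108, and 0.98 ± 0.20, adjusted p = 0.000738, against contra). The groups did not overlap and contra lay between the others. Col8a1 was 0 and 9.78, 6.42 and 6.57, and 37.5 and 104 CPM (3.89 ± 0.79, edgeR adjusted p = 0.000812, 0.0549 without Sham_L). Col6a3 was 0 and 4.89, 0 and 8.76, and 29.4 and 74.4 CPM (4.39 ± 1.01, edgeR adjusted p = 0.00277). Col12a1 was 7.58 and 0, 16.1 and 17.5, and 19.6 and 71.9 CPM (3.32 ± 0.88, edgeR adjusted p = 0.00872, 0.106 without Sham_R). For Col12a1 the moderate infarct lay close to both contra libraries, and the severe one stood apart.

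Further fibril chains and a membrane collagen were also higher than in Sham in OPCs. Col5a2 was 7.58 and 9.78, 3.21 and 8.76, and 22.8 and 72.7 CPM (2.40 ± 0.71, edgeR adjusted p = 0.018, 0.555 without sMCAO_ipsi). Col5a1 had 0 UMIs in Sham and 51 in MCAO ipsi (21.2 and 31.8 CPM), 4.40 times the level of 3 counts over the Sham group, with 1.61 and 15.3 CPM in contra (edgeR adjusted p = 0.00995). Col13a1, which sits in the plasma membrane at contact sites, had 0 in Sham and 39 in ipsi (24.5 and 20.1 CPM), 3.36 times the level of 3 counts over the Sham group (edgeR adjusted p = 0.0193), a call lost without Sham_L, Sham_R or sMCAO_ipsi. The collagens that fell in OPCs were Col25a1 and Col19a1. Col25a1 was 387 and 191, 284 and 320, and 137 and 126 CPM (-1.36 ± 0.23, edgeR adjusted p = 0.00012, 0.131 without Sham_L), and Col19a1 102 and 34.2, 54.6 and 26.3, and 19.6 and 0.836 CPM (-3.40 ± 0.68, edgeR adjusted p = 0.000653, 0.211 without Sham_L). Summed pan-neuronal markers in OPCs were 1505 and 1438, 1336 and 1360, and 918 and 843 CPM, and their part was not tested.

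Against MCAO contra 9 of the 17 collagens were higher and 3 lower in OPCs, against 8.45% and 9.3% of all genes. Col4a1 and Col4a2, the paired basement membrane chains, were among them. Col4a1 was 49.3 and 53.8 CPM in Sham, 33.7 and 28.5 in contra and 65.2 and 92.8 in ipsi (1.21 ± 0.28, edgeR adjusted p = 0.00273, 0.0509 without sMCAO_ipsi), and Col4a2 68.2 and 58.7, 48.2 and 61.3, and 70.1 and 127 CPM (0.78 ± 0.26, edgeR adjusted p = 0.0357). Sham lay nearer to ipsi than contra did, and neither was called against Sham. Col11a1 rose to 168 and 252 CPM from 101 and 120 in contra (0.81 ± 0.20, edgeR adjusted p = 0.00507), where Sham stood at 186 and 132. Col5a3, the collagen with its highest level in OPCs, fell: 419 and 394 CPM in contra, 207 and 280 in ipsi (-0.87 ± 0.17, edgeR adjusted p = 0.000479), with Sham at 273 and 210 CPM, among the ipsi values. Col8a1 (3.35 ± 0.54, edgeR adjusted p = 6.84e-05), Col6a3 (3.68 ± 0.66), Col5a2 (3.03 ± 0.58), Col13a1 (3.26 ± 0.87) and Col12a1 (1.43 ± 0.48) were higher than in contra too, and Col25a1 (-1.35 ± 0.21) and Col19a1 (-2.61 ± 0.64) lower. Here too Col8a1, Col6a3, Col5a2, Col13a1 and Col12a1 had passed the filter on low counts only through MCAO ipsi.

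In sMCAO_ipsi most OPC UMIs of Col5a1, Col5a2, Col6a3, Col8a1, Col12a1 and Col13a1 together came from few nuclei, which were rich in fibroblast markers. Nuclei with UMIs of at least 2 of these 6 were 0 of 180 and 0 of 164 in Sham, 0.272% and 1.08% of contra and 1.06% and 6.25% of ipsi OPCs. In sMCAO_ipsi these 29 of 464 nuclei held 332 UMIs of the 6, and the 76 nuclei with 1 of them held 116. The 29 nuclei had fibroblast markers at 809 CPM, OPC markers at 3263 CPM and a median of 3343 UMIs. The 359 OPCs without a UMI of the 6 had 61.0 and 7472 CPM and 1847 UMIs. In mMCAO_ipsi the 5 nuclei with at least 2 held 42 UMIs and fibroblast markers at 1146 CPM, and the 45 with 1 of them held 53 UMIs. Col8a1 alone was found in 5 of 471 OPCs of mMCAO_ipsi, with 10 of its 23 UMIs in 1 nucleus. In sMCAO_ipsi it was found in 19 of 464, with 22 of its 124 UMIs in 1 nucleus. Over all OPCs the fibroblast marker sum was 136 and 122 CPM in Sham, 109 and 85.4 in contra and 101 and 140 in ipsi. With OPCs left out that held a UMI of 1 of 8 fibroblast markers (Cemip and Bicc1, which hold most such UMIs of OPCs over all libraries, were not counted, 5 to 21 nuclei per library, a choice made after seeing the data), Col8a1 (3.04, edgeR adjusted p = 0.013), Col6a3 (4.23, adjusted p = 0.004), Col5a1 (6.44, adjusted p = 0.026) and Col16a1 (1.62) were still called against Sham, while Col12a1, Col13a1 and Col5a2 fell under the filter on low counts. In the fit of all OPCs, Col8a1, Col6a3 and Col5a1 had passed that filter only through MCAO ipsi. They held 0 and 2, 0 and 1, and 0 and 0 UMIs in Sham. Their remaining calls rest on no more than these Sham UMIs, and the size for Col5a1 depends on the prior count. In astrocytes, leaving out nuclei with any of these fibroblast markers took out 6 to 146 nuclei per library, 146 of 486 in sMCAO_ipsi. It kept Col11a2 (-2.45) and lost Col25a1 (-1.22, edgeR adjusted p = 0.111), with Col19a1 and Col6a6 under the filter.

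**Figure D2:**
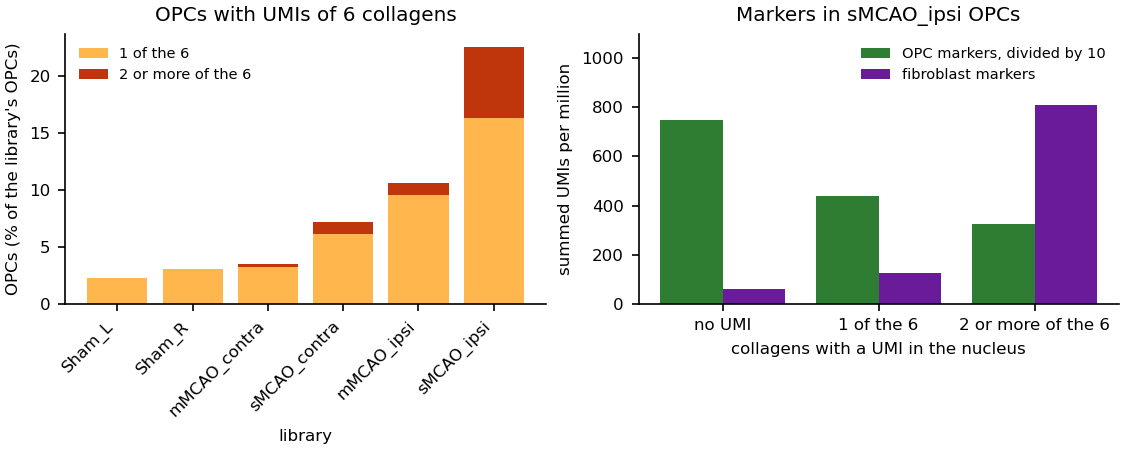
Left, percent of OPC nuclei (y axis, stacked bars) with UMIs of 1 or of at least 2 of the 6 collagens Col5a1, Col5a2, Col6a3, Col8a1, Col12a1 and Col13a1 in each library; right, summed OPC markers (divided by 10) and fibroblast markers, in CPM, in the sMCAO_ipsi OPCs with none, 1 or at least 2 of the 6. Both shares are highest in sMCAO_ipsi (16.4% and 6.25%), and nuclei with at least 2 have more fibroblast and less OPC marker RNA than nuclei with none.

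In oligodendrocytes Col5a3 was higher and Col25a1 lower than in Sham, 1 of 15 collagens each way, against 1.1% and 3.5% of all genes. Col5a3 stood at 17 and 32.1 CPM in Sham, 12.6 and 16.8 in contra and 103 and 246 in ipsi (2.97 ± 0.49, edgeR adjusted p = 0.0323). The infarcted libraries did not overlap with the rest. Col25a1 was 95 and 117, 58.9 and 70.8, and 40.5 and 15.3 CPM (-2.05 ± 0.39, edgeR adjusted p = 0.0354). Both calls were lost without any 1 of the Sham or contra libraries. Col16a1, called in OPCs, was 59.7 and 61.2, 75.8 and 46.6, and 127 and 300 CPM here, highest in both infarcted libraries. Against Sham edgeR narrowly missed the call (1.81 ± 0.43, edgeR adjusted p = 0.0503) and DESeq2 made it (1.79, DESeq2 adjusted p = 0.00786). Against MCAO contra it was 1.75 ± 0.38 (edgeR adjusted p = 0.122, DESeq2 adjusted p = 0.0284). A rise of Col16a1 was therefore not seen in OPCs alone. Pan-neuronal markers in oligodendrocytes fell to 581 and 179 CPM in ipsi from 669 to 1105 in the others, and fibroblast markers were 129 and 216 against 73.6 to 108 CPM, which was not tested as a source. Against MCAO contra edgeR called 0 of the 15, and 0% of all genes, with 1486 genes under an unadjusted p of 0.05 and 2 collagens called by DESeq2, so nothing can be read from that 0 about Col5a3. Col9a3 and Col9a2, the type IX chains of this class, were not called in any comparison.

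In glutamatergic neurons the type V chains Col5a3 and Col5a2 rose. Of 34 collagens tested, 4 were higher and 4 lower than in Sham, where 4.6% and 2.44% of all genes were called. Col5a3 was 1.09 and 2.62 CPM in Sham, 8.89 and 6.85 in contra and 68.7 and 191 in ipsi (6.06 ± 0.55, edgeR adjusted p = 0.0014, 0.0855 without Sham_L), and 3.99 ± 0.44 (edgeR adjusted p = 0.0036) against contra, a call lost without mMCAO_contra (0.0849) or sMCAO_contra (0.0602). The groups did not overlap and every contra library was above both Sham libraries. Nuclei with a Col5a3 UMI made up 0.469% and 0.797% of Sham, 2.20% and 1.95% of contra and 16.4% and 39.6% of ipsi glutamatergic nuclei, and after thinning to 1000 UMIs 0.0293% and 0.207%, 0.699% and 0.497%, and 5.37% and 12.9%. In medium spiny neurons, at median depths of 2290, 3308 and 3537 UMIs, the unthinned share was 0.561% in Sham, 0.749% in contra and 1.61% in ipsi. Col5a3 levels in those and in other GABAergic neurons of MCAO ipsi were 4.78 and 2.72, and 7.13 and 6.10 CPM, neither called against Sham. OPC markers in glutamatergic nuclei went from 981 to 1051 CPM outside the infarct to 1221 and 1238 in ipsi, and fibroblast markers were 127 to 167 CPM over all libraries.

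**Figure D3:**
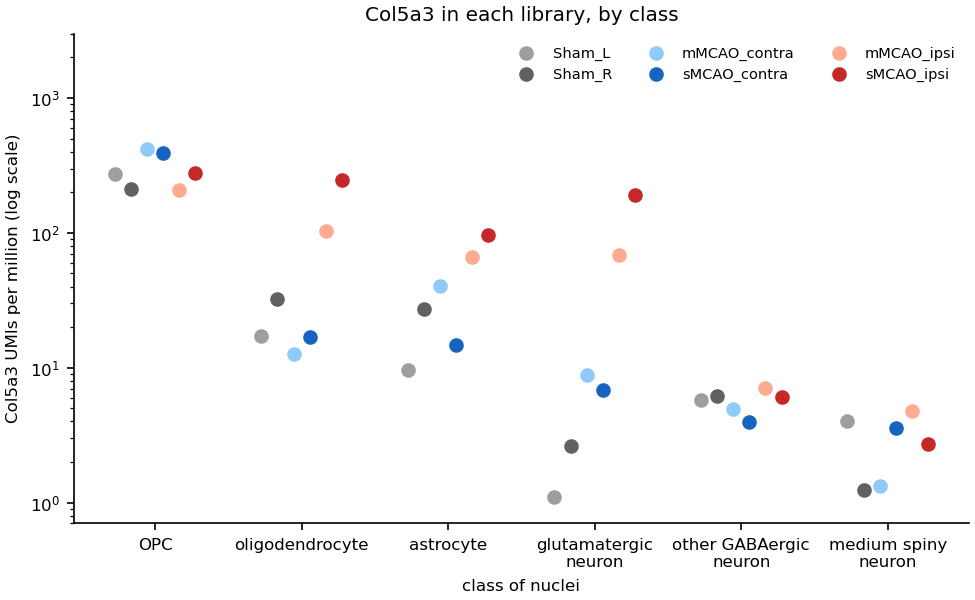
Col5a3 in CPM of the class (y axis, log scale) in each of the 6 libraries (colours), for the 6 classes tested along the x axis. Glutamatergic neurons and oligodendrocytes of both infarcted libraries lie above those of the other 4 (68.7 and 191, 103 and 246 CPM), medium spiny and other GABAergic neurons stay under 8 CPM, and in OPCs the contra libraries are highest.

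The other fibrillar and filament chains that rose in glutamatergic neurons moved less. Col5a2 was 12.4 and 16.4, 15.9 and 11.5, and 29.7 and 40.0 CPM (1.16 ± 0.19, edgeR adjusted p = 0.00856, 0.168 without Sham_L and 0.0602 without Sham_R), and thinned shares of nuclei with a UMI were 1.26% and 1.95%, 1.81% and 1.30%, and 2.72% and 4.23%. Col11a1 was 46.9 and 50.9, 64.1 and 58.9, and 69.8 and 123 CPM (0.85 ± 0.20, edgeR adjusted p = 0.0261), with moderate infarct close to contra. Col6a3 stayed low, at 0.485 and 0.338 CPM in Sham and 1.64 and 1.81 in ipsi (1.89 ± 0.41, edgeR adjusted p = 0.022), and passed the filter on low counts only through MCAO ipsi. Those that fell were Col25a1 (191 and 198, 152 and 140, 114 and 108 CPM, -0.92 ± 0.08, edgeR adjusted p = 0.0014, 0.0783 without Sham_L), Col23a1 (46.6 and 39.6, 45 and 35.7, 29.7 and 15.4 CPM, -0.99 ± 0.26, edgeR adjusted p = 0.0391), Col15a1 (9.46 and 7.86, 9.18 and 9.13, 5.81 and 4.42 CPM, -0.84 ± 0.20, edgeR adjusted p = 0.0297) and Col28a1 (2.37 and 2.87, 1.87 and 0.978, 1.19 and 0.804 CPM, -1.41 ± 0.40, edgeR adjusted p = 0.0483). The calls of Col11a1, Col6a3, Col23a1, Col15a1 and Col28a1 were lost without either Sham library and without either contra library. Of these, DESeq2 called only Col11a1 and Col15a1. For Col25a1 the order Sham, contra, ipsi held without overlap. The glutamatergic nuclei of sMCAO_ipsi were few and deep, as given above, and medium spiny markers in this class were 511 and 475 CPM in ipsi against 933 to 1378 in the other libraries. Whether the same kinds of neuron were sampled in each library was not tested.

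Against MCAO contra 4 of 34 were higher and 1 lower, against 2.21% and 1.6% of all genes: Col5a3 (above), Col5a2 (1.32 ± 0.19, edgeR adjusted p = 0.00736), Col6a3 (1.74 ± 0.39, adjusted p = 0.0288) and Col7a1 rose and Col15a1 fell (-0.79 ± 0.20, adjusted p = 0.0458). Col7a1 was below 1 CPM in 5 libraries and 11.8 in sMCAO_ipsi (0.844 in mMCAO_ipsi, 4.69 ± 1.22, edgeR adjusted p = 0.0491), so its call rests on the severe infarct. Like Col6a3, it passed the filter on low counts only through MCAO ipsi.

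Medium spiny neurons, the projection neurons of the striatum, had 3 of 21 collagens higher and 2 lower than in Sham, against 2.76% and 3.32% of all genes. Col9a1, a fibril-associated chain, was 3.18 and 3.44 CPM in Sham, 3.25 and 2.38 in contra and 12.8 and 15.8 in ipsi (2.03 ± 0.31, edgeR adjusted p = 0.0015, and 2.29 ± 0.32, adjusted p = 0.00221, against contra). Both infarcted libraries were about equal and above all others. Thinned shares of nuclei with a Col9a1 UMI were 0.330% and 0.447%, 0.219% and 0.294%, and 1.05% and 1.44%. Col5a2 was 5.31 and 5.90, 7.64 and 2.68, and 15.9 and 73.3 CPM (2.89 ± 0.57, edgeR adjusted p = 0.00684, 0.133 without Sham_L and 0.0811 without Sham_R), with thinned shares of 0.396% and 0.503%, 0.657% and 0.196%, and 1.57% and 6.61%. Col6a3 was under 1 CPM outside the infarct and 3.99 and 5.43 in ipsi (3.20 ± 0.77, edgeR adjusted p = 0.0212), and passed the filter on low counts only through MCAO ipsi. Col19a1 fell (50.1 and 50.2, 35.9 and 27.1, 20.3 and 12.2 CPM, -1.66 ± 0.21, edgeR adjusted p = 0.000347), as did Col23a1 (10.6 and 12.3, 4.20 and 3.27, 1.99 and 0 CPM, -3.45 ± 0.55, edgeR adjusted p = 0.00204), both without overlap of the 3 groups. These nuclei numbered 765 and 350 in MCAO ipsi against 1025 to 1842 in the others, and fibroblast markers in them were 47.0 to 66.4 CPM over all libraries.

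Against contra, 3 of 21 were higher and 1 lower in medium spiny neurons, against 1.25% and 1.51% of all genes. Besides Col9a1, Col5a2 (2.95 ± 0.57, edgeR adjusted p = 0.013) and Col6a3 (2.95 ± 0.74, adjusted p = 0.0425) were higher and Col19a1 lower (-0.96 ± 0.22, adjusted p = 0.0289). Only the Col9a1 call held whichever library was left out, and DESeq2 made 1 call in this class. Col6a3 had passed the filter on low counts only through MCAO ipsi. In other GABAergic neurons edgeR and DESeq2 called 0 of 28 collagens against Sham, with 8 under an unadjusted p of 0.05 by edgeR, where 1.92% of all genes were called. Against contra 1 was higher and 0 lower, against 0.568% and 0.118% of all genes: Col5a2 at 17.4 and 18.9 CPM in Sham, 14.1 and 9.36 in contra and 35.0 and 21 in ipsi (1.28 ± 0.26, edgeR adjusted p = 0.0362), with sMCAO_ipsi close to Sham. DESeq2 made this call too, but edgeR lost it without any 1 of the Sham or contra libraries.

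Endothelial cells, mural cells and fibroblasts carried the highest levels of the basement membrane and fibril chains, but had too few nuclei in Sham for the test (51 endothelial and 32 fibroblast nuclei, 3 mural), so their values are given with counting intervals. Endothelial Col4a1 was 250 and 383 CPM in Sham (8 and 6 UMIs), 408 and 466 in contra (21 and 12) and 1135 and 2070 in ipsi (63 and 733). Both infarcted libraries lay above the other 4. The ratio of ipsi to Sham was 6.61 (3.92 to 12.2) and to contra 4.55 (3.21 to 6.66), and severe was 1.82 times moderate (1.41 to 2.40). Nuclei with a Col4a1 UMI made up 23.5% of Sham, 30.3% of contra and 59.7% of ipsi endothelium (median depths 640, 709 and 1006.5 UMIs), against 0.853%, 0.845% and 1.74% of oligodendrocytes (652, 740 and 907 UMIs). Col4a2 was 250 and 192, 349 and 155, and 432 and 1113 CPM, with ratios of 4.42 (2.45 to 8.92) to Sham and 3.59 (2.34 to 5.78) to contra. The moderate infarct lay near mMCAO_contra for Col4a2, so its ratio was mostly the severe library's.

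Col4a3 went the other way in endothelium, at 313 and 894 CPM in Sham, 233 and 77.6 in contra and 108 and 67.8 in ipsi, 0.145 times Sham (0.0822 to 0.260) and 0.404 times contra (0.208 to 0.825). Ipsi and contra overlapped, and the Sham libraries were highest. Col18a1 was 31.3 and 63.9, 58.2 and 77.6, and 162 and 184 CPM, 2.79 times contra (1.14 to 8.85). Col8a1 had 0 UMIs in Sham, 2 and 0 in contra and 2 and 69 in ipsi, 2.75 times the level of 3 counts over the Sham group. Col15a1 had 0, then 1 and 0, then 3 and 87 UMIs, 3.49 times that level. Nearly all UMIs of both genes came from the severe infarct. Mural Col4a1 was 83 UMIs in sMCAO_ipsi, 7 in mMCAO_ipsi and 1 in mMCAO_contra, on 45, 9 and 6 nuclei, and 0 elsewhere. Mural markers in endothelium fell to 212 CPM in sMCAO_ipsi from 847 to 1469 in the other libraries, and pan-neuronal markers to 124 from 450 to 1406, and their part was not tested.

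Nuclei that passed both the endothelial and the mural gate (186) held Col4a1 at 548 and 1018 CPM in Sham, 943 and 448 in contra and 1410 and 3471 in ipsi, 3.86 times Sham (2.91 to 5.22), and Col4a3 at 548 and 431, 471 and 310, and 299 and 123 CPM, 0.367 times Sham (0.221 to 0.603). Summed with fibroblast, endothelial and mural nuclei into 1 vascular class, edgeR called 0 of 19 collagens against Sham and 0% of 4792 genes, with 10 collagens under an unadjusted p of 0.05. DESeq2 called 1.88% of these genes, Col8a1 higher (3.51, DESeq2 adjusted p = 0.0275) and Col4a3 lower (-2.44, adjusted p = 0.0198) among them. Without mMCAO_ipsi edgeR called 9 collagens, 8 higher and 1 lower, against 10.1% of genes. With the minimum lowered to 10 nuclei, added after seeing the data, endothelial Col4a1 was 2.47 ± 0.56 (edgeR adjusted p = 0.112) and Col4a3 -2.69 (adjusted p = 0.112), so no call was made, nor for any other of 1228 genes (0%).

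**Figure D4:**
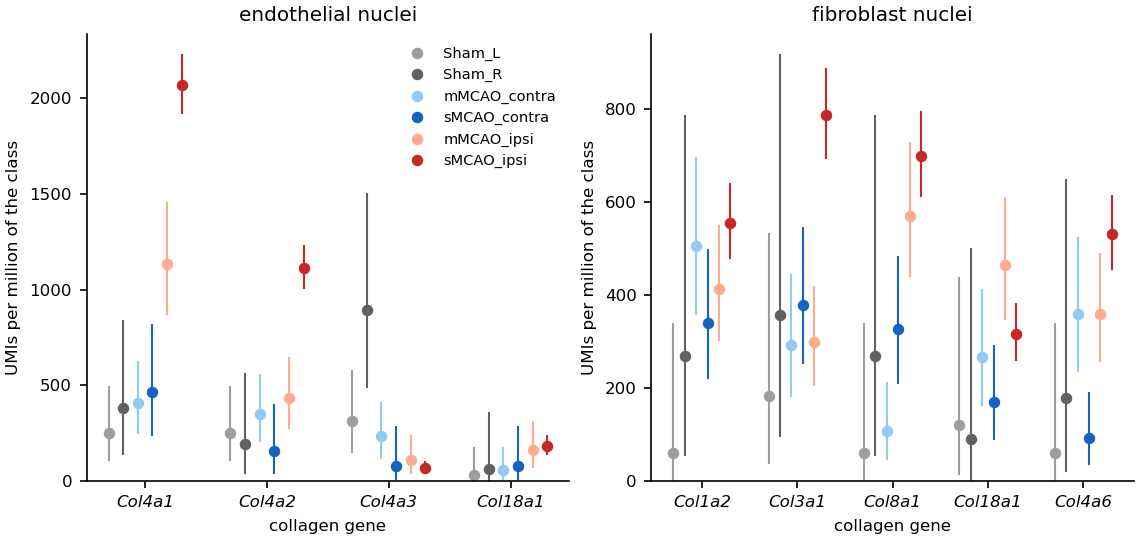
Level in CPM of the class in each library (points, bars are exact Poisson 95% intervals of counting error) for endothelial Col4a1, Col4a2, Col4a3 and Col18a1 and fibroblast Col1a2, Col3a1, Col8a1, Col18a1 and Col4a6. Endothelial Col4a1 is at 250 and 383 in Sham and 1135 and 2070 CPM in MCAO ipsi and Col4a3 is highest in Sham, while the wide Sham intervals of fibroblasts overlap most others.

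In fibroblasts the pooled levels of Col3a1 and Col1a2 per UMI of the class were higher in the infarcted hemisphere than in Sham, with wide intervals. Sham held 3 and 4 UMIs of Col3a1 and 1 and 3 of Col1a2, where 3 counts equal 181 and 268 CPM. Col3a1 was 181 and 358 CPM in Sham, 293 and 378 in contra and 298 and 786 in ipsi (2.63 times Sham, 1.26 to 6.60, and 1.98 times contra, 1.47 to 2.72), and severe was 2.64 times moderate (1.84 to 3.89). Moderate infarct lay among the controls. Col1a2 was 60.5 and 268, 506 and 339, and 412 and 554 CPM (3.59 times Sham, 1.38 to 13.3), and Col1a1 121 and 89.4, 399 and 222, and 167 and 339 CPM, so contra overlapped ipsi for both type I chains. Nuclei with a Col1a2 UMI made up 12.5%, 31.3% and 42.7% of Sham, contra and ipsi fibroblasts (median depths 679, 883 and 1268 UMIs), against 0.355%, 0% (0 of 2957 nuclei) and 0.309% of oligodendrocytes.

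Col8a1 in fibroblasts had no overlap between ipsi and contra: 60.5 and 268 CPM in Sham (1 and 3 UMIs), 106 and 326 in contra and 570 and 699 in ipsi, 3.07 times contra (2.14 to 4.54) and 4.62 times Sham (1.79 to 17.1), with both infarcted libraries above the other 4. Col7a1 was 9.26 times contra (3.06 to 45.8), on 2 and 1 UMIs in contra and 9 and 75 in ipsi. Col6a3 was 3.23 times contra (1.63 to 7.31), at 66.5 and 52.2 CPM in contra and 158 and 203 in ipsi. Col4a6 was 2.18 times contra (1.51 to 3.23), at 359 and 91.3 CPM in contra and 359 and 531 in ipsi. The moderate libraries did not differ for Col4a6, so its ratio came from the severe ones. Col18a1 (121 and 89.4, 266 and 170, 464 and 316 CPM) was 1.62 times contra (1.11 to 2.44) and lower in severe than in moderate infarct (0.680, 0.486 to 0.963). Col25a1 was 0.271 times contra (0.194 to 0.378), and Col12a1 0.462 times Sham (0.298 to 0.748), with Sham_R at 1609 CPM and all other libraries at 302 to 457. With a minimum of 10 nuclei, edgeR called 0 of 14 fibroblast collagens against Sham, 4 of them under an unadjusted p of 0.05 (Col8a1 2.19, adjusted p = 0.228), where 0% of 2384 genes were called and 351 were under an unadjusted p of 0.05. Without mMCAO_ipsi it called 3 collagens and 7.9% of genes. In ependymal cells Col11a1 was 1481 and 1234, 2869 and 1548, and 2745 and 2193 CPM, 1.68 times Sham (1.09 to 2.71), with contra and ipsi overlapping. In myeloid cells Col15a1 was 0 CPM in Sham and mMCAO_contra, 14 in sMCAO_contra (1 UMI) and 43.3 and 34.6 in ipsi (29 and 58 UMIs). In Sham_L and Sham_R 3 counts of this class equal 1919 and 631 CPM, so no difference from Sham can be read.

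Summed over all nuclei of a library, 11 of 41 collagens were called against Sham, 10 higher and 1 lower, where 10.2% of all genes were called higher and 3.05% lower, and the median log2 fold change was 0.45 over collagens and 0.02 over all genes. In such sums, more cells of a type and more RNA per cell cannot be told apart. Fibroblasts were 0.137% and 0.103% of Sham, 0.483% and 0.537% of contra and 0.803% and 2.02% of ipsi nuclei. Col1a1 was 0.569 and 0.605, 1.29 and 1.60, and 2.27 and 10.1 CPM (3.03 ± 0.65, edgeR adjusted p = 0.032), Col1a2 0.888 and 0.864, 1.77 and 1.69, and 3.53 and 17.3 CPM (3.20 ± 0.67, edgeR adjusted p = 0.0305) and Col3a1 0.888 and 0.547, 1.31 and 1.75, and 3.22 and 16 CPM (3.36 ± 0.72, edgeR adjusted p = 0.0321). Each was lowest in Sham and highest in ipsi without overlap, and the severe infarct stood far above the moderate one. Col5a3 was 6.60 and 7.49, 14.2 and 15.1, and 62.1 and 109 CPM (3.30 ± 0.20, edgeR adjusted p = 0.00604), and Col25a1 272 and 268, 240 and 237, and 168 and 181 CPM (-0.90 ± 0.09, edgeR adjusted p = 0.0082). For these 2 genes moderate and severe infarct were closer to each other. Col7a1 (2.91), Col6a3 (3.08), Col4a6 (1.92), Col16a1 (1.53), Col5a2 (1.30) and Col27a1 (1.16 on the log2 scale) were higher too. All 11 calls were lost without either Sham library, and leaving out either contra library gave 2. Against MCAO contra 2 of 41 were higher and 0 lower, against 3.82% and 0.931% of all genes: Col5a3 (2.39 ± 0.19, edgeR adjusted p = 0.0221) and Col5a2 (1.55 ± 0.23, adjusted p = 0.0279), both lost without any 1 of the Sham or contra libraries.

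The lists of genes that act on collagen were read from the same tests, beside the shares of all genes given above. Fits with a library left out are not given for these lists. Of 28 enzymes and chaperones of collagen making tested in whole libraries against Sham, 6 were higher and 1 lower: Serpinh1, the collagen chaperone Hsp47 (3.56 ± 0.73, edgeR adjusted p = 0.0298), Lox, which cross-links fibrils (4.32 ± 0.96), Bmp1, which trims the type I precursor (0.74), Pcolce, which enhances that trimming (3.17), Plod2, a lysyl hydroxylase (2.26), and Fkbp14 (1.55) rose and P3h2, a prolyl hydroxylase, fell (-0.72). Against contra 2 were higher, Plod2 (1.83) and Bmp1 (0.83). Of all genes, 6.27% were called higher and 6.38% lower than Sham in astrocytes, 8.08% and 9.66% in OPCs and 1.1% and 3.5% in oligodendrocytes. In glutamatergic, medium spiny and other GABAergic neurons these shares were 4.6% and 2.44%, 2.76% and 3.32%, and 1.38% and 0.536%. By class, against Sham, the list had 1 of 11 higher in astrocytes (Serpinh1 2.83 ± 0.74, edgeR adjusted p = 0.0259), 1 higher and 1 lower of 16 in OPCs (P4ha3 2.58 and Tll1 -1.49), 1 lower of 17 in oligodendrocytes (Adamts3), 3 higher and 1 lower of 22 in glutamatergic neurons (Plod2 1.89, Tll1 1.62, Bmp1 0.73 and P3h2 -1.12), 2 lower of 17 in medium spiny neurons (P4ha3 -2.59 and Adamts2 -2.88) and 0 of 21 in other GABAergic neurons by edgeR.

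Of the 11 collagen receptors, 5 were higher and 1 lower than Sham in whole libraries, where 10.2% of all genes were called higher and 3.05% lower. Cd44, which binds hyaluronan and collagen (3.64), the collagen-binding integrin chains Itga1 (2.55) and Itga2 (4.45) with Itgb1 (0.69), and the uptake receptor Mrc2 (1.78) rose, and the discoidin receptor Ddr2 fell (-0.73). Against contra 1 was higher, Cd44 (3.55), where 3.82% of all genes were called higher. By class against Sham, receptors called higher were 2 of 4 tested in astrocytes, 2 of 4 in OPCs and 1 of 5 in oligodendrocytes, against 6.27%, 8.08% and 1.1% of all genes. Among neurons it was 3 of 10 in glutamatergic, 0 of 7 in medium spiny and 1 of 8 in other GABAergic ones, against 4.6%, 2.76% and 1.38%. Not all of these are named here. Cd44 was called in astrocytes (4.99 ± 0.53, edgeR adjusted p = 0.00048), oligodendrocytes (3.95), glutamatergic (1.79) and other GABAergic neurons (1.96) and in OPCs (edgeR adjusted p = 9.36e-07), and Ddr2 was lower in glutamatergic (-1.04) and medium spiny neurons (-2.63). Of the 14 partners of type IV collagen in basement membranes, 3 laminin chains were higher than Sham in whole libraries, Lama2 (1.29), Lama4 (0.83) and Lama5 (1.97), and 2 higher than contra, Lama2 (1.16) and Lama4 (0.85), beside the same shares of all genes. Against Sham by class, Lamc1 rose in astrocytes (1.44) and OPCs (0.87), Lama4 in OPCs (1.20) and Lama2 in glutamatergic neurons (0.98), and Lama2 fell in astrocytes (-1.93).

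Of the 42 collagens 25 were called in a class or in whole libraries in at least 1 comparison of MCAO ipsi, 41 having been tested, where 28% of 17186 genes tested were called at least once. Some of the 25 passed the filter on low counts in a class only through MCAO ipsi, so this number depends on that filter too. The other 17 were Col2a1, Col4a3, Col6a1, Col6a2, Col6a4, Col6a5, Col8a2, Col9a2, Col9a3, Col10a1, Col14a1, Col17a1, Col18a1, Col20a1, Col22a1, Col24a1 and Col26a1. In classes 34 passed the filter on low counts in at least 1 class and 8 in none, and 13 of the 34 were not called in a class. By class 12 of 42 passed in astrocytes, 17 in OPCs, 15 in oligodendrocytes, 28 in other GABAergic neurons, 21 in medium spiny neurons and 34 in glutamatergic neurons. For those that did not pass, a change was not detectable at this depth.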

How the data were processed

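Nuclei of 11 rats, pooled by group and hemisphere into 6 libraries, were captured with a 10x Genomics 5′ kit. The authors aligned the reads with Cell Ranger 7.0.0 to mRatBN7.2, intronic reads included, and the deposited files hold the resulting raw UMI counts per gene and barcode, before the correction for free RNA and the doublet removal that the study ran later. Intronic reads can favour long genes, so levels were compared between classes and libraries, not between genes. Barcodes were kept within the limits of the study (no fewer than 500 UMIs, between 250 and 5000 genes detected, and no more than 5% of UMIs from mitochondria).

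No cell annotation was used. A nucleus was put in a class when at least 2 distinct markers made up at least 0.2% of its UMIs (0.05% for the glutamatergic list, and 0.25% of pan-neuronal markers for neurons), and 3437 nuclei lay within a factor of 1.25 above a limit. Nuclei in more than 1 class were left out of the classes, which stood in for a doublet caller. The exception was 186 nuclei with endothelial and mural markers, given apart and summed with fibroblasts, endothelium and mural cells into the vascular class. UMIs were summed per library and class and as CPM divided by all UMIs of the class. Sums were tested with edgeR 4.0.16 (TMM, filterByExpr, glmQLFit and glmQLFTest) in R 4.3.3 over all 6 libraries in 3 groups, with Benjamini-Hochberg adjustment over all genes of a class, for classes with at least 20 nuclei in every library. SE is the log2 fold change divided by the root of F. DESeq2 1.42.0 was an alternative. With 2 libraries per group an exact permutation of a single value cannot go below p = 0.333, so none is given. Intervals are exact 95% Poisson or binomial ones (Python 3.11.15, scipy 1.17.1) and cover counting error only. A group at 0 is set to 3 counts. The ratio to it leaves out the counting error of the other group, so it is no lower 95% limit. On simulated data with the astrocyte design, 14% of genes changed by 1 and 70% of those changed by 2 on the log2 scale were recovered, 26% and 74% with the OPC, 32% and 85% with the oligodendrocyte and 84% and 97% with the glutamatergic design.

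Named collagens are those called in a class or in whole libraries and the 3 with the highest mean CPM in each class. Col6a1, Col6a2, Col8a2, Col9a2, Col14a1, Col18a1, Col20a1 and Col24a1 fall outside this rule and were added, with the class they are highest in, after their values were seen. The collagens, the other gene lists and the markers were chosen with earlier results of these data known. Ipsi and contra libraries of a severity come from the same rats, so the rat pool was fitted as a block for that comparison only, although the deviations of paired libraries from their group means correlated weakly (r from -0.24 to 0.16 over the classes).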

Additional observations from a re-analysis of the deposited data

Results flagged for a closer look

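Against MCAO contra, Col5a3, a type V fibrillar chain, was higher in glutamatergic neurons of the infarcted hemisphere (log2 fold change 3.99). It was lower in OPCs (-0.87). By CPM, both ipsi libraries lay above both contra libraries in the neurons and below them in the OPCs. With libraries pooled, 39.8% of contra and 31.1% of ipsi OPCs held a Col5a3 UMI. After thinning to 1000 UMIs per nucleus these shares were 30.7% and 23.8%. Between the severe libraries alone this share did not fall, with or without thinning. Sham OPCs (273 and 210 CPM) lay among the ipsi ones (207 and 280 CPM), so the OPC level was lower than contra and not than Sham. The difference between the classes was not tested.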

How the results depend on the processing

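The number of collagen calls depended on the tool, the filter and single libraries. Against Sham, the 28 calls were 18 with DESeq2 (16 of them shared), 52 without the filter on low counts and 14 with at least 3 distinct markers per nucleus, and leaving out 1 library gave 6 (without Sham_L) to 51 (without mMCAO_ipsi). Against MCAO contra the 28 were 16 with DESeq2 (13 shared), 52 without the filter and 15 with the stricter gate, and 11 (without mMCAO_contra) to 55 (without mMCAO_ipsi) with 1 library left out. MCAO contra against Sham gave 0 by edgeR, with 22 at an unadjusted p under 0.05, but 7 without the filter, 7 in a fit of only the 4 libraries compared, and 0 to 10 with a library left out. Whole-library sums gave 11 calls, 2 in the fit of 4 libraries and 0 (without either Sham library) to 31 (without mMCAO_ipsi) with 1 left out. The fibroblast share of Col1a1, Col1a2 and Col3a1 went from 56.5% to 61.0% with the stricter gate and 52.9% with nuclei of 2 classes kept, and the endothelial share of Col4a1 from 14.9% to 21.4% and 18.8%. For single collagens, 573 alternatives were run: 425 stayed on the same side of the threshold in the same direction, 142 lost the call, 6 gained one and 0 changed direction. Why was not tested. Depth limits the vascular classes most, with 32 fibroblast and 51 endothelial nuclei in Sham.

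With the rat pool as a replicate block, MCAO ipsi against MCAO contra gave 33 calls, 27 of the 28 among them, and Col6a6 in astrocytes was the call lost (edgeR adjusted p = 0.054). Leaving out OPCs and astrocytes with a fibroblast marker other than Cemip and Bicc1, an alternative added after seeing the data, gave 22 calls against Sham and 23 against contra.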
